A study of Mus musculus with 12 samples.

Results

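The neutrophil granule genes followed here through 12 RNA libraries are 10 genes known for their expression in mouse neutrophils: S100a8, S100a9, Ltf, Camp, Ngp, Mpo, Elane, Prtn3, Cxcr2 and Mmp8. They were chosen by symbol, matched through their Ensembl identifiers, and make up 10 of the 49671 genes in the count table. Although they are grouped under that name, S100a8 and S100a9 encode cytosolic proteins and Cxcr2 a surface receptor, so 7 of the 10 encode granule proteins. All 10 passed the filter on low counts and had reads in all 12 libraries, the lowest count being 67 reads of Camp in wild type 3.

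The RNA is labelled as coming from mouse embryos at embryonic day 9.5, pooled for each library, with 3 libraries numbered as biological replicates in each of 4 groups. The groups are WT (wild type), LYL1 KO (Lyl1 knockout), SCL KO (knockout of Scl, whose gene symbol is Tal1) and LYL1 SCL DKO, the double KO of both. Both genes encode bHLH transcription factors that act in blood cell formation, and the title of the series names a role of Lyl1 in making primitive red cells. The labels do not give the strain, the alleles, the number of embryos in a pool or whether pools came from separate litters, so p-values measure only the spread between these samples. Total counts lay between 24324685 and 29212443 per library. Tal1 was at 93.4 to 117.6 CPM in Scl KO and 77.7 to 100.4 CPM in the double KO against 513 to 643 CPM in wild type (CPM, read counts scaled to a common library size with TMM factors), and Lyl1 was at 85.5 to 90.4 CPM in Lyl1 KO and 56.5 to 107.5 CPM in the double KO against 149 to 203 CPM in wild type. The labelled tissue was checked against marker genes: of 11 red-cell genes, Hba-x, Alas2, Klf1 and Slc4a1 had 0 reads in at least 1 library and at most 12. The other 7 had reads in every library, Hbb-bh1 at 0.0753 to 2.41 CPM (2 to 72 reads), Hbb-bt at 14.98 to 1017 CPM and Hba-a1 at 0.375 to 304 CPM. The 11 genes summed to 460 to 547 CPM in wild type, 1052 to 1502 CPM in Lyl1 KO, 207 to 715 CPM in Scl KO and 31.7 to 315 CPM in the double KO. The 9 megakaryocyte and platelet genes summed to 51687 to 59004 CPM in wild type, which is 5.17% to 5.90% of the normalised counts, and the platelet chemokine gene Ppbp had at least 89148 reads in every library. Thus 4 of the 11 red-cell genes were at or near 0 and Hbb-bh1 was low, while megakaryocyte and platelet genes were high. As the labels name no sorting or culture, it cannot be told from them whether they describe the tissue in full. The levels below are therefore not taken as those of whole embryos. The second principal component of log2 CPM held 13.2% of the variance, and along it the 3 Lyl1 KO libraries lay on the negative side together with replicate 3 of every other group, and the remaining 6 libraries on the positive side. No label names these sides, and the results that depend on them are given with and without the libraries concerned.

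Neutrophils are made from granulocyte progenitors in a fixed sequence. Proteins of the primary granules (myeloperoxidase, elastase, proteinase 3) are made first, at the promyelocyte stage, those of the secondary and tertiary granules (lactoferrin, cathelicidin, neutrophilic granule protein, collagenase) later, and the receptor Cxcr2, with which mature cells follow chemokines out of the marrow and into tissue, last. S100a8 and S100a9 form the calprotectin heterodimer, which fills the cytosol of neutrophils and is also made by monocytes. The factors C/EBP and PU.1 are known to drive many of these genes. In RNA from whole samples, fewer cells of a type and less RNA per cell cannot be told apart.

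Several of the genes lie near each other in the genome (build GRCm38). S100a8 (chromosome 3, 90668978 to 90670035, plus strand) and S100a9 (chromosome 3, 90692632 to 90695721, minus strand) are 22.6 kb apart within the S100 gene cluster. Prtn3 (chromosome 10, 79874476 to 79883174) and Elane (chromosome 10, 79886312 to 79888216) are 3.14 kb apart on the plus strand. On chromosome 9, Camp (109847379 to 109849617, minus strand) is followed after 0.570 Mb by Ngp (110419747 to 110423012) and after a further 0.596 Mb by Ltf (111019271 to 111042767), while Mmp8 (7558456 to 7568485) is far from them. Mpo (chromosome 11, 87793581 to 87804413) and Cxcr2 (chromosome 1, 74153989 to 74161246) stand alone. No member shares exon bases with another gene on its own strand. Mpo and Prtn3 overlap exons of Gm11505 and Plppr3 on the opposite strand, and the counting used the strand.

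The sequences before the start sites of the 4 genes whose levels differed most between the double KO and the Scl KO are shown, because S100a8, S100a9, Mmp8 and Cxcr2 also moved closely together across the libraries. They come from RefSeq (GRCm38.p6), run 5′ to 3′ on the gene's strand, and cover up to 250 bases before the RefSeq start, without bases that the gene annotation places in an exon. Capitals mark matches, on either strand, to TTNCNNAA (a C/EBP-type motif) and GAGGAA (a PU.1-type motif).
S100a8, chr3:90668821-90668977, plus strand: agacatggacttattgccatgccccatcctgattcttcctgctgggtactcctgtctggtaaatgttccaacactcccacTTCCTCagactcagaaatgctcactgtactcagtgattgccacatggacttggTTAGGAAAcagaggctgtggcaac
S100a9, chr3:90695722-90695971, minus strand: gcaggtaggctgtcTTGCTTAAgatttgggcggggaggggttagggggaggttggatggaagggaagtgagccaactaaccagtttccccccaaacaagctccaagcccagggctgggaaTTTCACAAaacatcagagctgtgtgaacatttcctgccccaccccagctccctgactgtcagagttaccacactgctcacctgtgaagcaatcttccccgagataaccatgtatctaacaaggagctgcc
Mmp8, chr9:7558179-7558428, plus strand: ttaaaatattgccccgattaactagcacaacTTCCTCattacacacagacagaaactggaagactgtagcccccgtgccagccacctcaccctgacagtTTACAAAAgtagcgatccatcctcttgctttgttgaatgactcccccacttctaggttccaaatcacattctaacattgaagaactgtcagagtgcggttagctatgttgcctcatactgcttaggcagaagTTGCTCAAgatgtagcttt
Cxcr2, chr1:74153744-74153988, plus strand: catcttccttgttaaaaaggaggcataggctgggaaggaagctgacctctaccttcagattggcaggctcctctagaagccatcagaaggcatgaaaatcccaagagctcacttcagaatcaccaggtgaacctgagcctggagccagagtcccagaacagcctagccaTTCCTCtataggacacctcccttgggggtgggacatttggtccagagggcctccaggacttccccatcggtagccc

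All 10 members matched an entry in that table. Counted over the 250 bases before each start, with no exon bases left out, the C/EBP-type motif was in 5 of the 10 member windows and in 36.8% of all 32851 windows in the table, and the PU.1-type motif in 7 of 10 and in 23.3%. The E-box CAGNTG, the kind of site that Scl and Lyl1 are known to bind with their partners, was in 4 of 10 member windows and in 44.8% of all windows. The letters AGATAA, known from sites of the factor Gata1, were in 2 of 10 against 9.99%, and TGTGGT, known from Runx1 sites, in 1 of 10 against 14.05%. Both strands were searched. These are matches of letters in a short window and not binding sites.

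Compared per length (CPM per kilobase of the gene model), the members formed a clear order at the top. S100a9 was at 362 ± 179 CPM per kilobase (mean ± SD over the 12 libraries), S100a8 at 146 ± 79.6 and Ngp at 60.9 ± 23.4, and in each of the 12 libraries S100a9 was above S100a8, S100a8 above Ngp and Ngp above the other members. The lower part of the order ran from Elane (15.5 ± 6.61) through Mmp8 (13.6 ± 5.88), Ltf (11.6 ± 4.11), Mpo (8.65 ± 3.10), Prtn3 (8.10 ± 2.96) and Camp (7.30 ± 2.98) to Cxcr2 (4.58 ± 3.56), and neighbours there differed by less than their spread. In wild type, S100a9 stood at the 99.3rd percentile of the genes tested, Ngp at the 93.9th and Cxcr2 at the 54.5th. The 10 genes together took between 0.0244% and 0.103% of the normalised counts of a library.

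**Figure D1:**
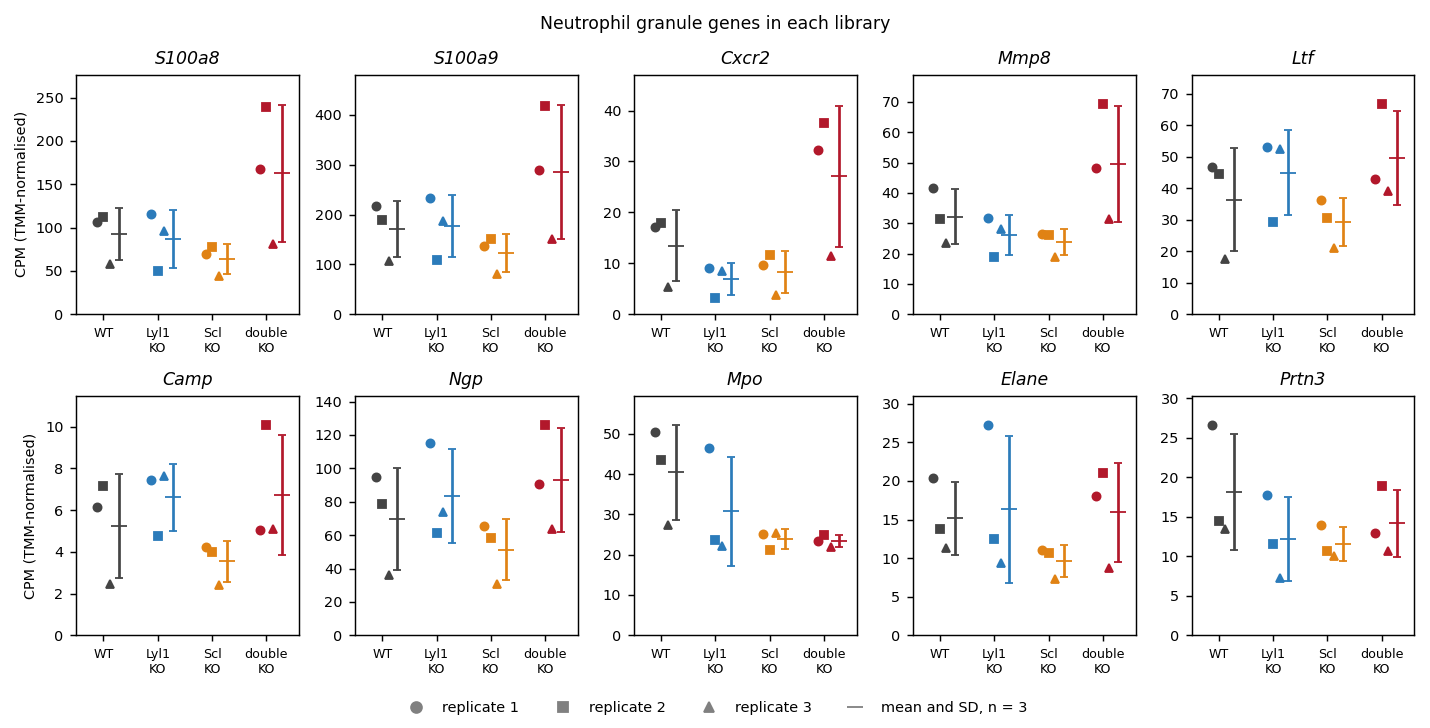
TMM-normalised CPM (linear axis from 0) of each of the 10 genes in the 12 libraries, by group, with marker shape giving the replicate number and bars the mean and SD of 3 libraries. Replicate 3 (triangles) is the lowest wild-type library in all 10 panels, and double KO 1 and 2 hold the highest levels of S100a8, S100a9, Cxcr2 and Mmp8.

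S100a8, the smaller subunit of calprotectin, stood at 106, 112 and 57.9 CPM in wild type (replicates in the order 1, 2, 3 here and below), at 115, 49.6 and 95.6 CPM in Lyl1 KO, at 69.7, 77.5 and 43.8 CPM in Scl KO and at 167, 239 and 81.4 CPM in the double KO. The lowest double KO library lay just above the highest Scl KO library, while it lay within the ranges of wild type and Lyl1 KO. S100a9, its partner, was at 217, 189 and 107 CPM in wild type, at 234, 109.7 and 186 CPM in Lyl1 KO, at 137, 151 and 80.5 CPM in Scl KO and at 289, 419 and 149.9 CPM in the double KO. Double KO 1 and 2 were above all 9 other libraries for both genes, and double KO 3 was below Scl KO 2 for S100a9. The ratio of S100a9 to S100a8 reads stayed between 1.68 and 2.21 in all 12 libraries, while the level of S100a8 ran from 43.8 to 239 CPM.

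Cxcr2, the receptor for the CXC chemokines that draw neutrophils into tissue, varied most. Wild type held 17.1, 17.9 and 5.36 CPM of it, and it was at 9.03, 3.24 and 8.46 CPM in Lyl1 KO, 9.63, 11.7 and 3.74 CPM in Scl KO and 32.3, 37.6 and 11.4 CPM in the double KO. Every double KO library was above every Lyl1 KO library, and double KO 3 lay under Scl KO 2 and under wild type 1 and 2. Against Ngp, Cxcr2 was lowest in Lyl1 KO, with 0.0528 to 0.114 reads of Cxcr2 per Ngp read, below the 0.123 to 0.357 of the other 9 libraries.

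Among the secondary and tertiary granule genes, Mmp8, which encodes neutrophil collagenase, was at 41.6, 31.4 and 23.6 CPM in wild type, at 31.6, 18.8 and 28.2 CPM in Lyl1 KO, at 26.5, 26.1 and 18.9 CPM in Scl KO and at 48.3, 69.3 and 31.2 CPM in the double KO. The double KO did not overlap the Scl KO and overlapped the Lyl1 KO only through double KO 3 and Lyl1 KO 1. Ltf, which encodes the iron-binding lactoferrin, was at 46.8, 44.6 and 17.4 CPM in wild type, at 53.2, 29.3 and 52.5 CPM in Lyl1 KO, at 36.4, 30.5 and 21.1 CPM in Scl KO and at 43.0, 66.7 and 39.2 CPM in the double KO. Its double KO libraries lay above the Scl KO libraries. Double KO 2 was the highest of the 12, and double KO 1 and 3 lay within the ranges of wild type and Lyl1 KO.

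Camp, the gene of the antimicrobial cathelicidin, had the lowest mean count of the 10, at 6.16, 7.15 and 2.44 CPM in wild type, at 7.45, 4.75 and 7.61 CPM in Lyl1 KO, 4.22, 3.995 and 2.41 CPM in Scl KO and 5.02, 10.1 and 5.09 CPM in the double KO. Here too the double KO stood above the Scl KO without overlap, with double KO 2 the highest of the 12 and the other double KO libraries within the ranges of wild type and Lyl1 KO. Ngp, which encodes neutrophilic granule protein, was at 94.6, 78.8 and 35.9 CPM in wild type, at 115, 61.4 and 74.0 CPM in Lyl1 KO, at 65.3, 58.3 and 30.5 CPM in Scl KO and at 90.4, 126 and 63.6 CPM in the double KO. Double KO 3 lay between the Scl KO libraries for Ngp, so these groups overlapped.

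Among the primary granule genes, Mpo, which encodes myeloperoxidase, was at 50.4, 43.5 and 27.3 CPM in wild type, at 46.4, 23.6 and 22.2 CPM in Lyl1 KO, at 25.0, 21.1 and 25.5 CPM in Scl KO and at 23.4, 24.9 and 21.8 CPM in the double KO. All 6 Scl KO and double KO libraries lay below all 3 wild-type libraries, within a band of 21.1 to 25.5 CPM. Elane, which encodes neutrophil elastase, was at 20.4, 13.7 and 11.3 CPM in wild type, at 27.2, 12.4 and 9.36 CPM in Lyl1 KO, 11.02, 10.6 and 7.24 CPM in Scl KO and 18.1, 21.0 and 8.68 CPM in the double KO. Its Scl KO libraries were all below the wild-type libraries, narrowly at the nearest pair (11.02 against 11.3 CPM), and its double KO libraries spread across both. Prtn3, the gene of proteinase 3, was at 26.6, 14.5 and 13.5 CPM in wild type, at 17.8, 11.6 and 7.23 CPM in Lyl1 KO, 13.96, 10.7 and 10.01 CPM in Scl KO and 12.96, 18.9 and 10.7 CPM in the double KO, with overlap between every pair of groups.

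Setting the double KO against the Scl KO asks what loss of Lyl1 adds where Scl is already lost. S100a8 was 2.55-fold and Mmp8 2.08-fold higher in the double KO, and both passed the test. In edgeR's quasi-likelihood test, with p adjusted by Benjamini-Hochberg over the 15399 genes tested and called when under 0.05, the log2 change was 1.35 ± 0.41 for S100a8 (log2 ± SE, adjusted p = 0.0375) and 1.06 ± 0.30 for Mmp8 (adjusted p = 0.0267). The called share was thus 2 of 10 members, both upward, where 8.37% of all genes tested were called up and 10.8% down. Cxcr2 had the largest change and missed the threshold (1.70 ± 0.58, adjusted p = 0.0612), as did S100a9 (1.22 ± 0.40, adjusted p = 0.0506). The changes of Camp (0.92 ± 0.41), Ngp (0.86 ± 0.39), Ltf (0.76 ± 0.36) and Elane (0.73 ± 0.41) were positive and not called, with adjusted p from 0.138 to 0.249. Prtn3 (0.30 ± 0.34) and Mpo (-0.03 ± 0.27) had the smallest changes. The median over the members was 0.89, beside 0.03 over all genes tested. For S100a8, Ltf, Camp and Mmp8 all 3 double KO libraries were above all 3 Scl KO libraries, which was true of 16.5% of all genes tested. The call of S100a8 was lost when any of Scl KO 1, 2 or 3 or double KO 1 or 2 was left out (adjusted p up to 0.157), and that of Mmp8 when Scl KO 1, 2 or 3 or double KO 2 was left out (up to 0.1196), while without double KO 3 the genes called were S100a8, S100a9, Cxcr2 and Mmp8. With the replicate number as a block, 5 members were called up in place of 2: S100a8 (1.31, adjusted p = 0.0406), S100a9 (1.19, adjusted p = 0.0392), Cxcr2 (1.68, adjusted p = 0.0462), Mmp8 (1.04, adjusted p = 0.0214) and Ngp (0.90, adjusted p = 0.0410). Among replicates 1 and 2, unlike-numbered libraries of these groups deviated together as closely as same-numbered ones, so the numbers settle no pairing. The share of all genes called up with the block is not given here.

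**Figure D2:**
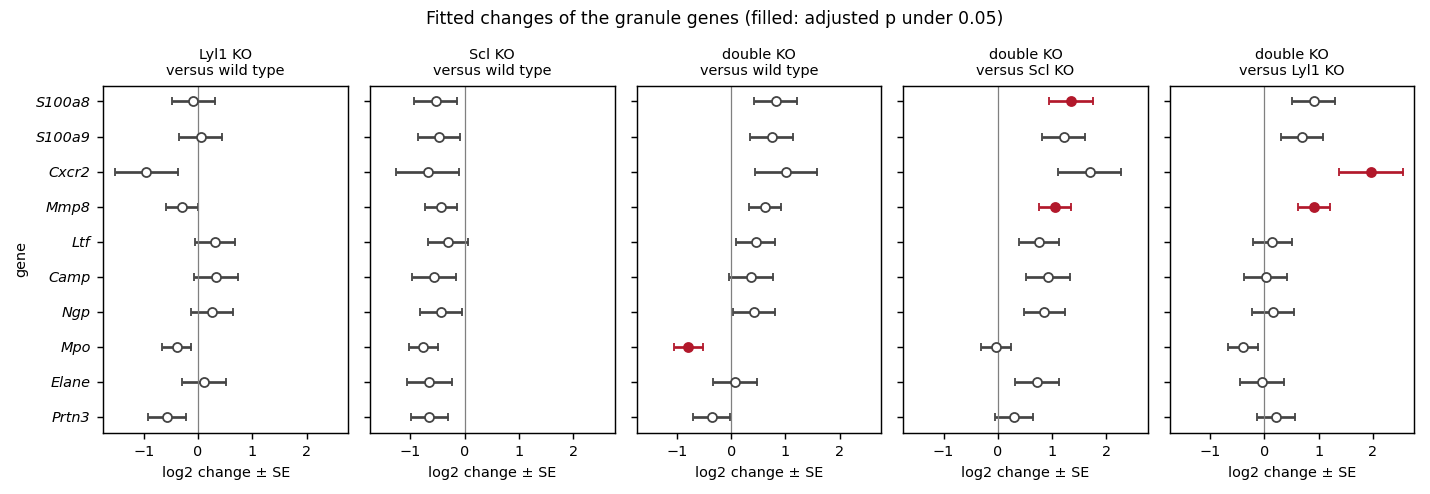
Fitted log2 change ± SE (horizontal axis) of each gene (rows) in 5 comparisons (panels), filled red where the adjusted p was under 0.05. The 5 called changes are S100a8 and Mmp8 in the double KO against the Scl KO, Cxcr2 and Mmp8 against the Lyl1 KO, and the fall of Mpo against wild type, while all 10 points lie left of 0 in the Scl KO against wild type.

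Within the sides of the second principal component, the differences between double KO and Scl KO had the same direction for 9 members. Among replicates 1 and 2 alone, S100a8 was 2.76-fold, Cxcr2 3.27-fold and Mmp8 2.24-fold higher in the double KO, and between replicates 3 alone they were 1.86-fold, 3.05-fold and 1.65-fold higher. Mpo was the exception, at 1.05-fold among replicates 1 and 2 and 0.858-fold between replicates 3. With the side added to the model, which was decided with the data in view, 6 members were called up in this comparison: S100a8, S100a9, Cxcr2, Mmp8, Camp and Ngp, with 28.1% of all genes called in either direction.

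In the Scl KO against wild type, which asks what loss of Scl does alone, all 10 changes were negative and none was called. They ran from -0.31 ± 0.36 for Ltf to -0.76 ± 0.27 for Mpo, with a median of -0.55 beside 0.00 over all genes tested. Mpo came closest to the threshold (adjusted p = 0.158) and was the only one of the 10 with an unadjusted p under 0.05, and DESeq2 and limma-voom called 0 as well. In this comparison 5.03% of all genes tested were called. Mpo and Elane were lower in all 3 Scl KO libraries than in all 3 wild-type libraries, which held for 11.2% of all genes. On the positive side of the second component, the Scl KO means of the 10 genes were 0.491-fold (Mpo) to 0.732-fold (Ltf) the wild-type means. With 2 libraries in each group there, and members that moved together, these are not read as 10 separate results. Between the replicates 3, with 1 library in each group, Ltf was 1.21-fold higher and the other 9 were lower, Camp (0.989-fold) and Mpo (0.932-fold) only slightly.

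Against wild type, the double KO had lower Mpo, at 0.579 of the wild-type level (log2 change -0.79 ± 0.27, adjusted p = 0.0419), the 1 member called, where 18.1% of all genes tested were called down and 16.4% up. Mpo was also the 1 member with all 3 double KO libraries below all 3 wild-type libraries, beside 21.1% of all genes tested. The Scl KO and the double KO share the wild-type libraries in their comparisons, and their changes of Mpo were -0.76 and -0.79. Cxcr2 (1.01 ± 0.57, adjusted p = 0.190), S100a8 (0.82 ± 0.40, adjusted p = 0.137), S100a9 (0.74 ± 0.39, adjusted p = 0.165) and Mmp8 (0.62 ± 0.29, adjusted p = 0.119) had positive changes that were not called. The median over the members was 0.44, beside 0.04 over all genes tested. The call of Mpo was kept without wild type 3 and lost when any other of the 6 libraries compared was left out (adjusted p up to 0.161). With the side of the second component as a term, Mpo was at an adjusted p of 0.0513, and S100a8, S100a9, Cxcr2 and Mmp8 were called up. The share of all genes called up with this term is not given here.

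Against the Lyl1 KO, which asks what loss of Scl adds where Lyl1 is lost, Cxcr2 was 3.92-fold higher in the double KO (log2 change 1.97 ± 0.59, adjusted p = 0.0213) and Mmp8 1.89-fold (0.92 ± 0.29, adjusted p = 0.0295). These 2 of 10 members called up stand beside 17.4% of all genes tested, a share near that of the members. S100a8 (0.91 ± 0.40, adjusted p = 0.103) was not called, and the log2 changes of Ltf, Camp, Ngp, Elane and Prtn3 lay between -0.04 and 0.22. Both calls were lost without Lyl1 KO 2, double KO 1 or double KO 2 (adjusted p up to 0.0812 for Cxcr2 and 0.143 for Mmp8), and that of Mmp8 also without Lyl1 KO 3 (0.0556). With the side of the second component as a term, neither was called (adjusted p = 0.0981 for Cxcr2 and 0.172 for Mmp8). All 3 Lyl1 KO libraries lie on the negative side of the second component, so that double KO 3 is the double KO library on their side. Cxcr2 was the 1 member with all 3 double KO libraries above all 3 Lyl1 KO libraries, beside 25.8% of all genes tested. Double KO 3 alone was above them for Cxcr2 (1.65-fold their mean), inside their range for 7 members and below all of them for Mpo and Elane.

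In the Lyl1 KO against wild type, 5 changes were positive and 5 negative, from -0.96 ± 0.58 for Cxcr2 to 0.33 ± 0.40 for Camp, and none was called. Of all genes tested 0.0714% were called, 0 members had an unadjusted p under 0.05 in edgeR's test, and DESeq2 and limma-voom called 0. The change of Cxcr2 turned positive (0.30) with the side of the second component as a term, and that of Camp turned negative without wild type 3 (-0.016). Wild type 3 is the wild-type library on the same side of the second component as the Lyl1 KO libraries. Against this 1 library, the lowest of wild type for all 10 members, the Lyl1 KO means ran from 0.907-fold for Prtn3 to 2.70-fold for Camp. They were 1.64-fold for S100a9, 2.58-fold for Ltf, 2.32-fold for Ngp and 1.29-fold for Cxcr2. These folds rest on 1 low wild-type library and are not read as a rise with loss of Lyl1.

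The interaction, which is the change from Scl KO to double KO minus the change from wild type to Lyl1 KO, was positive for all 10 members and turned negative for Ltf (-0.18), Camp (-0.091) and Ngp (-0.14) with the side of the second component as a term. None was called, where 9.38% of all genes tested were. It was 2.66 ± 0.82 for Cxcr2 (adjusted p = 0.0653), 1.35 ± 0.42 for Mmp8 (adjusted p = 0.0647) and 1.44 ± 0.57 for S100a8 (adjusted p = 0.144). In edgeR's test these 3 were the ones under an unadjusted 0.05. DESeq2 called Cxcr2 (adjusted p = 0.0385) and Mmp8 (adjusted p = 0.0194), and edgeR's test also called 2 members without wild type 3 or without double KO 3. The median was 0.74, beside 0.04 over all genes tested.

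**Figure D3:**
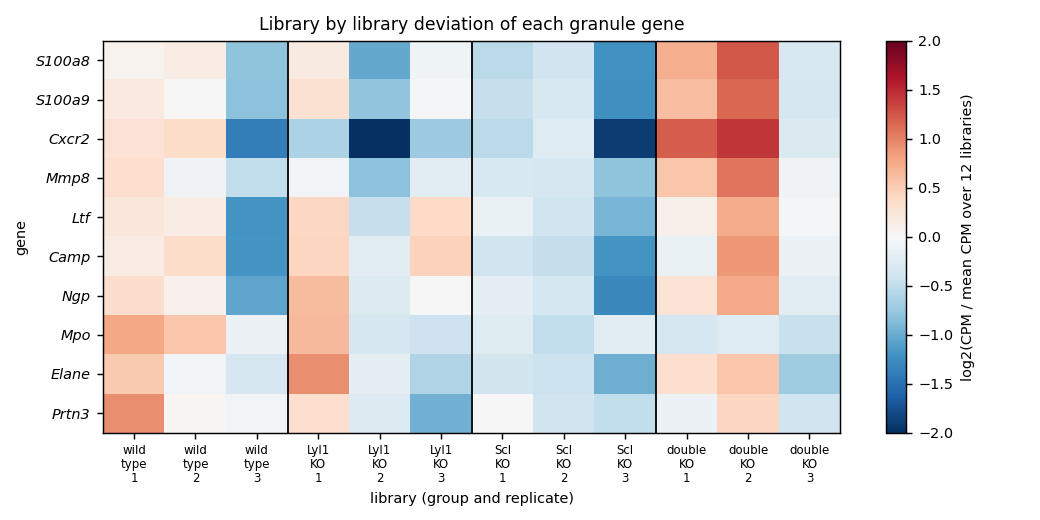
Log2 of the CPM of each gene (rows) over its mean in the 12 libraries (columns, by group and replicate), from blue (lower) to red (higher). Lyl1 KO 2 and replicate 3 of each other group are the bluer columns of their groups for most genes, and double KO 1 and 2 are red for S100a8, S100a9, Cxcr2 and Mmp8.

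Replicate 3 had the lowest level of its group for 10 of 10 members in wild type, 9 of 10 in Scl KO and 9 of 10 in the double KO, whereas over all genes tested replicate 3 was lowest for 37.5%, 44.4% and 42.0%. The mean of replicates 1 and 2 was 1.89-fold that of replicate 3 in wild type (median over members), 1.63-fold in Scl KO and 1.79-fold in the double KO, beside 1.01, 1.02 and 1.04 over all genes tested. Cxcr2 differed most, 3.26-fold, 2.85-fold and 3.06-fold. Mpo differed by 1.72-fold in wild type, 0.906-fold in Scl KO and 1.11-fold in the double KO. In Lyl1 KO, replicate 2 was lowest for 7 members and replicate 3 for Mpo, Elane and Prtn3. Ly6g, a surface marker of mature mouse neutrophils, had 15, 27 and 1 reads in wild type, 4, 3 and 11 in Lyl1 KO, 24, 12 and 0 in Scl KO and 39, 32 and 0 in the double KO. A count of 0 allows up to 0.105 CPM in Scl KO 3 and 0.0936 CPM in double KO 3. Replicate 3 thus had 0 or 1 read of Ly6g in the 3 groups where the members were low in it, although it still held 1251 to 2608 reads of S100a8.

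**Figure D4:**
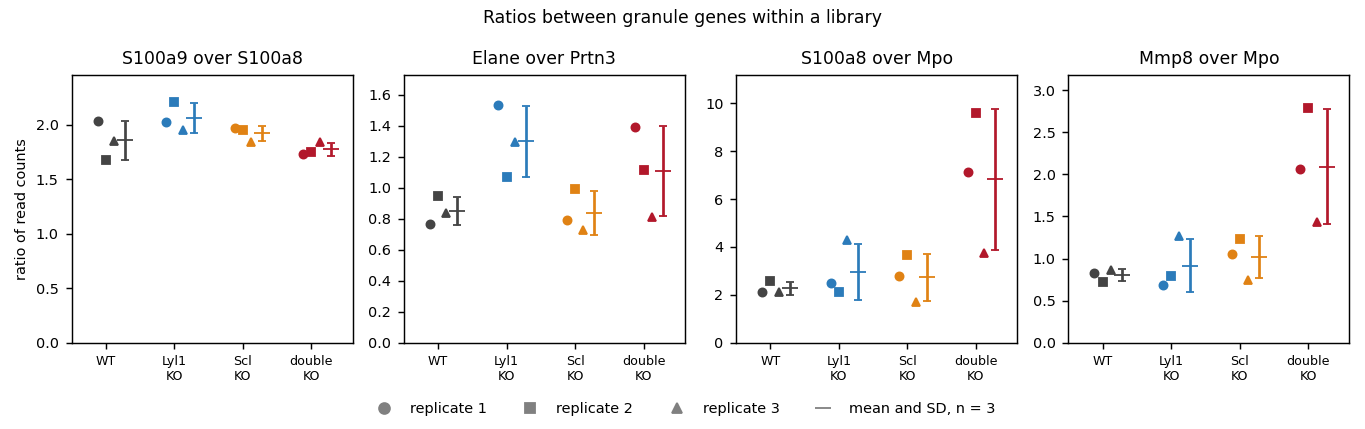
Ratios of read counts between 2 members in each library (points, shape by replicate; bars, mean and SD of 3), on linear axes from 0. S100a9 over S100a8 stays between 1.68 and 2.21, while Mmp8 over Mpo is 1.43 to 2.79 in the double KO and at most 1.27 elsewhere.

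Ratios between members in the same library do not depend on the scaling of libraries. Mmp8 had 1.43 to 2.79 reads per read of Mpo in the double KO and 0.682 to 1.27 in the other 9 libraries, with no overlap. The ratio was 0.803 ± 0.072 in wild type, 0.916 ± 0.312 in Lyl1 KO, 1.01 ± 0.250 in Scl KO and 2.09 ± 0.679 in the double KO (mean ± SD, n = 3). S100a8 over Mpo was 3.73 to 9.62 in the double KO against 2.11 to 2.58 in wild type, 2.11 to 4.31 in Lyl1 KO and 1.72 to 3.67 in Scl KO, so it overlapped the Lyl1 KO at Lyl1 KO 3. Elane over Prtn3 was 1.07 to 1.53 in Lyl1 KO and 0.768 to 0.949 in wild type, without overlap, and 0.813 to 1.39 in the double KO. Ngp over Ltf lay between 1.41 and 2.16 in all libraries. These ratios are given as a description, without a test, and show unequal changes of the genes in a pair. The pairs were not fixed in advance, and overlap was not counted for other pairs. Mmp8 and S100a8 were called up and Mpo down in comparisons of the double KO, so their ratios restate the same counts.

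Across the 12 libraries the 45 pairs of members had Pearson correlations of log2 CPM from 0.157 (Mpo with Cxcr2) to 0.989 (S100a8 with S100a9), with a median of 0.713. Libraries share their groups, so these values only describe how the genes moved. Ltf and Camp (0.964) and Ltf and Ngp (0.939), and S100a8 and Mmp8 (0.960) and Cxcr2 and Mmp8 (0.940), were among the closest pairs, and the neighbours Elane and Prtn3 stood at 0.790. Mpo had the lowest values, with a median correlation of 0.279 with the other members, against 0.485 for Prtn3 and 0.871 for S100a9. Of 11266 other genes with a mean of at least 1 CPM, 8 had a correlation over 0.9 with the mean standardised profile of the members: Lcn2 (0.973), which encodes the secondary granule protein lipocalin 2, Csf3r (0.936), the receptor for the granulocyte growth factor, Itgb2l (0.925), Fgr (0.912), Pilra (0.912), Jaml (0.903), Cd177 (0.902) and the formyl peptide receptor Fpr2 (0.901). The median over all genes compared was -0.02.

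Other neutrophil genes were taken from 3 lists that also hold the members. The genes are counted below by list, and not every gene of the granule lists encodes a granule protein, Ltb4r1 and Ms4a3 being exceptions. Of 8 primary granule genes, 7 were tested and Ms4a3 (log2 change 0.96 ± 0.35 in the double KO against wild type, adjusted p = 0.0487) was the one called besides Mpo in the 5 comparisons between groups, while Bpi had reads in 1 library. Among 12 secondary and tertiary granule genes, all tested, Cd177, a surface glycoprotein, was called up in the double KO against Scl KO with Mmp8 (1.22 ± 0.36, adjusted p = 0.0366). Ltb4r1, the leukotriene B4 receptor gene, went the other way and fell by 2.02 on the log2 scale (adjusted p = 0.000358), from 18.5, 16.7 and 10.7 CPM in Scl KO to 4.52, 4.15 and 2.62 CPM in the double KO. Of 14 cytosol and surface genes, all tested, S100a8 and Il1r2 were called up in this comparison and none down. Il1r2, the interleukin 1 decoy receptor, was at 1.01, 1.18 and 0.315 CPM in Scl KO and at 6.63, 8.002 and 10.1 CPM in the double KO (3.304 ± 0.58, adjusted p = 0.00214), and unlike the members it was highest in double KO 3. Itgb2, the beta 2 integrin subunit, fell by 1.17 on the log2 scale in the double KO against wild type (adjusted p = 0.000349). Csf3r was at 27.4, 31.2 and 22.0 CPM in Scl KO and at 62.5, 76.3 and 29.4 CPM in the double KO, a change that was not called (1.06 ± 0.36, adjusted p = 0.0572). In the double KO against Scl KO, members included, the change was positive for 5 of the 7 primary granule genes tested (median log2 change 0.35), 11 of the 12 secondary and tertiary granule genes (0.93) and 13 of the 14 cytosol and surface genes (1.28), beside a median of 0.03 over all genes tested. How many of all genes tested had a positive change is not given here. Summed without the members, the other 24 listed genes showed no clear rise. Their Scl KO libraries ranged from 760 to 962 CPM (mean 869). Those of the double KO spanned 765 to 974 CPM (mean 887). Itgb2 made up a large part of this sum, and its mean was lower in the double KO (321 against 466 CPM).

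The genes of the chemokines that act on Cxcr2 did not move together. Of 6 ligand genes 5 were tested, and in the double KO against wild type Cxcl3 was called up and Cxcl1, Cxcl5 and Ppbp down. Cxcl3 was at 3.83, 5.84 and 11.4 CPM in wild type, at 66.8, 68.6 and 69.6 CPM in Scl KO and at 30.7, 25.4 and 19.5 CPM in the double KO. It rose in the Scl KO against wild type (log2 change 3.27 ± 0.35, adjusted p = 0.000284) and was lower in the double KO than in the Scl KO (-1.44 ± 0.32, adjusted p = 0.00840). Cxcl1 fell by 2.76 (adjusted p = 0.0160) and Cxcl5 by 1.16 (adjusted p = 0.0306) in the double KO against wild type on the log2 scale. Ppbp fell by 1.75 (adjusted p = 0.00208), from 15678 CPM or more in wild type to 2782 to 8690 CPM in the double KO.

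Of the 6 genes of the phagocyte NADPH oxidase, which makes the oxidants that myeloperoxidase uses, Ncf1 was called up in the double KO against each other group and Cyba down against wild type and Lyl1 KO. Ncf1 was at 93.3, 91.4 and 82.7 CPM in Scl KO and 211, 404 and 212 CPM in the double KO (1.63 ± 0.23, adjusted p = 0.000665), and was not lower in double KO 3 than in double KO 1. Cyba fell by 0.85 ± 0.17 in the Scl KO against wild type (adjusted p = 0.0112). Of 10 granulocyte transcription factors, edgeR called 0 in the double KO against Scl KO, and 4 had an unadjusted p under 0.05. Cebpe, the factor of secondary granule genes, had 9 to 63 reads per library and a change of 1.17 ± 0.53 (adjusted p = 0.150), with all double KO libraries above all Scl KO libraries. Against the Lyl1 KO, Klf5 was called up (2.01 ± 0.51, adjusted p = 0.00904) and Cebpa (-0.89 ± 0.18, adjusted p = 0.00265) and Irf8 (-0.86 ± 0.31, adjusted p = 0.0481) down.

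Among 7 receptors and partners of calprotectin, Tlr4 and Bsg were called down in the Scl KO and in the double KO against wild type, Bsg by 0.69 ± 0.11 in the latter (adjusted p = 0.000447). Tlr4, the receptor that calprotectin is known to act on, fell by 0.74 ± 0.17 in the Scl KO (adjusted p = 0.0254). Myd88, its adaptor, was called up in the double KO against Scl KO by 0.29 ± 0.09 (adjusted p = 0.0357). Of 11 other genes of the S100 cluster around S100a8 and S100a9, 7 were tested, and S100a6 was the 1 called up in the double KO against Scl KO (0.77 ± 0.14, adjusted p = 0.00262). In that comparison, where S100a8 and S100a9 had positive changes, 3 of the 7 neighbours had positive and 4 negative changes. The neighbours thus did not all move in the direction of the pair. In the double KO against the Lyl1 KO, S100a1 fell by 0.61 (adjusted p = 0.00318) and S100a13 by 0.43 (adjusted p = 0.0390), while S100a8 and S100a9 were not called.

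**Figure D5:**
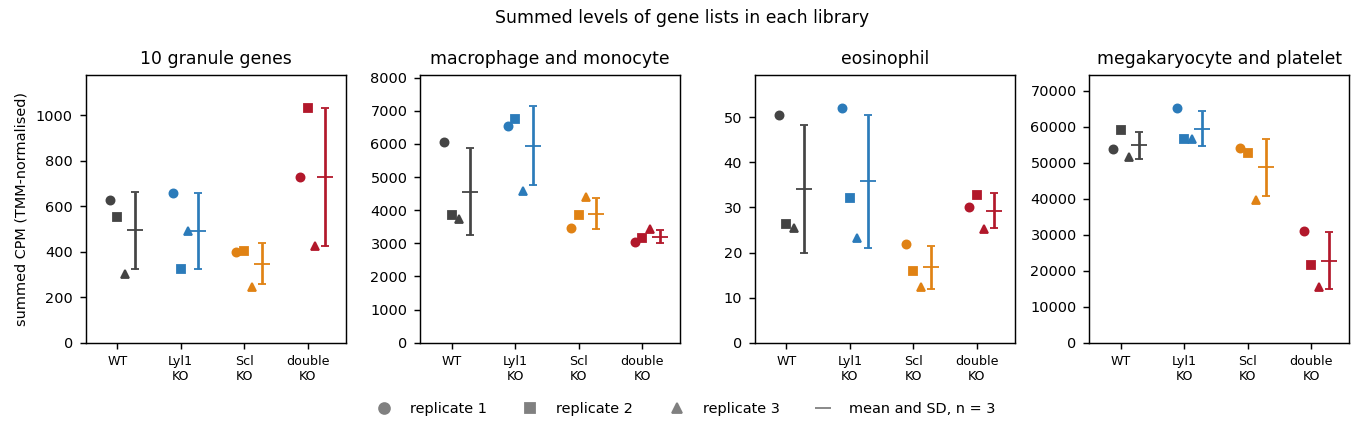
Summed TMM-normalised CPM (linear axes from 0) of the 10 granule genes and of marker lists for 3 other cell types in each library (points, shape by replicate; bars, mean and SD of 3). The granule genes reach 1032 CPM in double KO 2, while the macrophage and megakaryocyte sums of the double KO lie below those of the Scl KO.

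Markers of other cell types were summed for the same libraries, since some members are also known in monocytes. The macrophage and monocyte list (12 of 12 genes with reads in every library) was at 3448 to 4388 CPM in Scl KO and 3033 to 3419 CPM in the double KO, opposite to the members. Its genes Lyz2 (2563 to 5656 CPM over the 12 libraries) and Csf1r (78.7 to 276 CPM) had reads in every library. Lyz2 made up most of the sum, with a mean of 3188 of 3898 CPM in Scl KO and 2673 of 3205 CPM in the double KO. Gene by gene, 11 changes in the double KO against Scl KO were negative and 1 positive (median log2 change -0.44). Of its genes edgeR called 0 in the double KO against Scl KO, 1 had an unadjusted p under 0.05, and 5 were called down against wild type. The eosinophil list (8 of 8 detected) was, like the members, lower in the Scl KO than in the double KO, at 12.5 to 21.9 CPM in Scl KO, 25.2 to 32.7 CPM in the double KO, 25.5 to 50.5 CPM in wild type and 23.3 to 52.1 CPM in Lyl1 KO. Of its 7 genes tested, Prg2, a granule gene (1.22 ± 0.31, adjusted p = 0.0161), and Ear1 (2.93 ± 0.76, adjusted p = 0.0193) were called up in the double KO against Scl KO. Ear1 had 3, 3 and 2 reads in Scl KO and 24, 37 and 9 in the double KO, and the list's defining gene Epx had 7 to 62 reads. The part of eosinophil RNA in the result was not tested. The mast cell and basophil list lay at 17.5 to 21.3 CPM in Scl KO and 17.01 to 27.7 CPM in the double KO, with Mcpt4 and Tpsb2 at 0 in some libraries and Cpa3 at 3.18 to 27.1 CPM. The lymphocyte list lay at 8.05 to 15.2 and 6.28 to 14.2 CPM, with Cd3e, Cd3g and Klrb1c at 0 in some libraries. The megakaryocyte and platelet list was at 39485 to 53980 CPM in Scl KO and 15498 to 31146 CPM in the double KO, with 8 of 9 genes called down. Its part in the result was not tested either. In the Scl KO against wild type, all 12 macrophage and monocyte changes were negative (median log2 change -0.52), as in the 10 members (-0.55). The same held for the 7 eosinophil (-1.04), 5 lymphocyte (-1.09) and 7 endothelial genes tested (-0.74). Also negative were 5 of 6 mast cell and basophil, 8 of 9 megakaryocyte and platelet and 3 of 7 red-cell changes. Negative changes there were thus not particular to the members.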

How the data were processed

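RNA was extracted with Trizol and RNeasy and made into stranded mRNA libraries, per the labels' protocols. Per the file headers and the submitters' processing notes, the deposited counts are whole reads per gene made by the authors with STAR 2.5.2b and featureCounts (Subread 1.5.2), on the reverse strand, against GRCm38 with Ensembl release 87; the notes also name limma. Here the counts of 49671 genes were scaled by TMM, genes with too few reads were left out (minimum count 10, minimum total 15, leaving 15399), and 1 model with a term per group was fitted over all 12 libraries with edgeR 4.0.16 in R 4.3.3 (robust quasi-likelihood F-test, Benjamini-Hochberg adjustment over all genes tested, threshold 0.05). The script was tested on simulated data. Alternatives were DESeq2 1.42.0, limma-voom 3.58.1, other scaling and filters, a replicate block and leaving out each library. Same-numbered Scl KO and double KO libraries deviated from their group means together (correlation over 0.1 in 3 of 3 pairs, from 0.150 to 0.441). Unlike-numbered libraries did so as well, at 0.231 for Scl KO 2 with double KO 1 and 0.152 for Scl KO 1 with double KO 2. The numbers thus settle no pairing among replicates 1 and 2, and the block is given as an alternative only. In each other pair of groups at most 2 of 3 same-numbered pairs were over 0.1. A floor of 3 counts corresponds to 0.0936 to 0.131 CPM and covers counting error only. The members and the gene lists were chosen with earlier results of these data known. Genes named beside the members are up to 4 called genes of each list, its defining genes, the targeted genes and the 8 genes most like the members. Promoter windows and motifs were read from RefSeq.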

Additional observations from a re-analysis of the deposited data

Results flagged for a closer look

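For 6 genes of the lists around the granule genes, the change with loss of Lyl1 differed according to whether Scl was also lost, by the interaction term of edgeR's quasi-likelihood test over all 12 libraries. Il1r2, the interleukin 1 decoy receptor gene, had an interaction of 3.53 on the log2 scale (adjusted p = 0.0176). Ncf1, the gene of an NADPH oxidase subunit, had one of 1.66 (adjusted p = 0.00928), and S100a6, a neighbour of S100a8 and S100a9, one of 1.01 (adjusted p = 0.00952). It was negative for the Cxcr2 ligand genes Cxcl3 at -2.27 (adjusted p = 0.0116) and Ppbp at -1.78 (adjusted p = 0.0378), and for the leukotriene receptor gene Ltb4r1 at -1.99 (adjusted p = 0.00636). Of all genes tested, 9.38% were called by this term. By list, 1 of 14 cytosol and surface genes tested was called, and 1 of 12 secondary and tertiary granule genes. Of the others, 2 of 5 Cxcr2 ligand genes, 1 of 6 NADPH oxidase genes and 1 of 7 S100 cluster neighbours were called. Of 7 primary granule genes, 10 transcription factors and 7 calprotectin receptors and partners tested, 0 were called. The 6 calls are therefore not read as a trait of these lists.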

How the results depend on the processing

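In the Lyl1 KO and the Scl KO against wild type, 0 granule genes were called under every alternative run. In the double KO against wild type the 1 call became 0 with no filter on low counts, with limma-voom and when replicate 3 of every group but the Lyl1 KO was left out (called the set without 3 here), and 4 with the side of the second component as a term; leaving out 1 library gave 0 to 2. In the double KO against the Scl KO the 2 calls became 0 with no filter, 1 with limma-voom, 1 with only the 6 libraries compared, 4 with DESeq2, 4 in the set without 3 and 6 with the side term, and 0 to 4 when 1 library was left out. In the double KO against the Lyl1 KO the 2 calls became 0 with no filter, 1 with only the 6 libraries compared, 4 in the set without 3 and 0 with the side term, and 0 to 3 when 1 library was left out. For the interaction, DESeq2 called 2, the side term 1, the set without 3 called 2, and leaving out 1 library 0 to 2; it could not be fitted from 6 libraries. The side term and the set without 3 were chosen after seeing the data. The number of all genes called also differed between settings and is given here for some of them only. A changed count of members called is therefore not read as a result about the members. Changes near 0 turned their sign: Camp in the Lyl1 KO against wild type ranged from -0.016 to 0.65 when 1 library was left out and was -0.017 in the set without 3; Mpo in the double KO ranged from -0.11 to 0.024 against the Scl KO (0.062 in the set without 3, 0.0024 without double KO 3) and from -0.58 to 0.034 against the Lyl1 KO. Cxcr2 in the Lyl1 KO against wild type was 0.30 with the side term. The cause was not tested. Without the filter 26757 genes were tested.

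Over all groups, 10 of 18 same-numbered pairs deviated together with a correlation over 0.1. With the replicate number as a block, 5 granule genes were called in the double KO against the Scl KO in place of 2, the counts of members called in the other comparisons were unchanged, and over all genes 1226 in the Scl KO against wild type in place of 774. Over all genes, DESeq2 called 103 in the Lyl1 KO against wild type in place of 11, 1329 in the Scl KO against wild type and 2261 for the interaction in place of 1444. In the Lyl1 KO against wild type the count over all genes was 29 with only the 6 libraries compared, 692 in the set without 3 and 5 to 41 when 1 library was left out. In the Scl KO against wild type it was 1631 with the side term, 1310 in the set without 3 and 388 to 955 when 1 library was left out. In the double KO against the Scl KO it was 1742 with only the 6 libraries compared and 1645 to 3222 when 1 library was left out, in place of 2947. For the interaction it was 3199 with the side term, 2238 in the set without 3 and 671 to 1925 when 1 library was left out. Every member had 67 or more reads in every library. With 3 libraries per group, the SD ran from 6.46% of the mean (Mpo in the double KO) to 58.5% (Elane in Lyl1 KO). How far depth limits these comparisons was not tested.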
